A study of Mus musculus with 15 samples.

Results

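The genes described here are the 4 Notch receptors and the parts that cut them and carry their signal to DNA, in crypts of the mouse small intestine. They were chosen by name, with earlier results of these data known. The set holds Notch1, Notch2, Notch3 and Notch4, the protease Adam10, the γ-secretase subunits Psen2 and Ncstn, the DNA-binding protein Rbpj and its partner Maml1. The rule took every array probe whose accession maps to 1 of these 9 symbols, out of 20149 named genes. It found 12 probes among 39429, with 2 probes each for Notch1, Notch2 and Rbpj and 1 for each of the other 6 genes. In the RefSeq annotation Notch1 lies on mouse chromosome 2, Notch2 on 3, Notch3 and Notch4 on 17, Adam10 on 9, Psen2 and Ncstn on 1, Rbpj on 5 and Maml1 on 11.

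The mice were 6 to 8 weeks old and crypt RNA was collected 24 h after a single treatment. The control group received an IgG antibody. The N1N2 group received antibodies that block the receptors Notch1 and Notch2, labelled 1 mg/mL, which is a concentration and not an amount per animal. The N1N2 plus Lrp6 group received the same pair and, at 30 mg/kg, a blocking antibody to the Wnt co-receptor Lrp6, and no group received the Lrp6 antibody alone. Each of the 3 groups had 5 arrays, described as biological replicates; whether an array holds 1 animal or a pool, and the strain, are not given in the sources used here. On every array the comparison was of crypt RNA in red with a common mouse reference RNA in green, with no dye swap, so a level is the log2 ratio of crypt over reference and levels of different probes are not compared.

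Notch receptors are membrane proteins that are activated by ligands on a neighbouring cell. Adam10 then sheds the outer part of the receptor, and γ-secretase, a membrane complex with a presenilin such as Psen2 as its catalytic subunit and nicastrin (Ncstn) as a structural one, releases the intracellular domain. That domain enters the nucleus, binds Rbpj and recruits a Mastermind protein such as Maml1, which turns on target genes such as Hes1. In the intestine, signalling through Notch1 and Notch2 keeps crypt progenitors dividing and holds back secretory fates, whereas Notch4 is best known from endothelium and Notch3 from the pericytes and smooth muscle of vessel walls.

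Promoter sequence was matched for all 9 genes in RefSeq (GRCm38.p6). The Notch4 promoter is shown because Notch4 RNA rose in N1N2, and that of Notch2 because its probe A_52_P289213 fell. The other tested Notch2 probe, A_55_P1982793, showed no detectable change. The Rbpj promoter is shown because it holds the letters TGGGAA, the core of the motif that Rbpj itself binds. Each is the stretch of 250 bases before the annotated start, 5′ to 3′ on the gene's strand, and capitals mark TGGGAA or its reverse complement. The Notch4 stretch is chr17:34564045-34564294, Notch2 is chr3:98013288-98013537 and Rbpj is chr5:53590096-53590345, all on the plus strand.
Notch4: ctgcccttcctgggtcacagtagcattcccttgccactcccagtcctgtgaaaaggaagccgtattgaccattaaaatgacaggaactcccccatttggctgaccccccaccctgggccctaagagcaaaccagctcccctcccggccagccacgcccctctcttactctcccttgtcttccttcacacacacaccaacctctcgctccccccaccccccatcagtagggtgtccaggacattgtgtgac
Notch2: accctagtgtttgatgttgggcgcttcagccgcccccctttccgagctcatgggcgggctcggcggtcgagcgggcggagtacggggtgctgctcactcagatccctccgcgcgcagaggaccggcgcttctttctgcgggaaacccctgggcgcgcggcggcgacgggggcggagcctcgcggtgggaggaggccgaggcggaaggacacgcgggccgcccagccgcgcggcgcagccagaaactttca
Rbpj: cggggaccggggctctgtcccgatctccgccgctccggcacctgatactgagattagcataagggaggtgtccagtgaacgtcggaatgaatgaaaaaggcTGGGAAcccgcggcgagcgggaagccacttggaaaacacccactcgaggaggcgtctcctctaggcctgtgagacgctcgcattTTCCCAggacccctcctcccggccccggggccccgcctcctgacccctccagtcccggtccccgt
The Notch2 stretch is 72.0% G or C with 34 CpG pairs, against 58.4% and 4 CpG pairs for Notch4 and a median of 52.0% G or C over all promoters. TGGGAA, searched on both strands, had 2 matches in the Rbpj stretch, 149 and 65 bases before the start. It had no match in the stretches of Notch1, Notch2, Notch3, Notch4, Adam10, Ncstn or Maml1. One of the 2 annotated Psen2 starts had a match 89 bases before it, and the match 205 bases before a second Rbpj start is one of those already given. Of 27025 promoters of this length, 21.5% hold TGGGAA, so a match is a description of these letters and not of binding.

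Of the 12 probes, 10 passed the filter for dim probes, which asked for a red signal well above background on at least 4 of 5 arrays of at least 1 group. Notch1 probe A_55_P2047168 was not well above background on any of the 15 arrays, with values from -0.19 to 0.15, and only Notch1 probe A_55_P2171897 is used below. Rbpj probe A_55_P2022524 was well above background on 7 of 15 arrays, 3 control, 3 N1N2 and 1 N1N2 plus Lrp6, with values from -1.29 to -0.75, and was not tested. Among the tested probes, Notch3 and Notch2 probe A_55_P1982793 were well above background on 14 of 15 arrays and Maml1 lacked a value on 1 control array, where its spot carried a quality flag.

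The arrays themselves were uneven. Between 57.2% and 79.8% of spots were well above background in red, on average 75.8% ± 4.19 in controls, 73.9% ± 3.05 in N1N2 and 64.8% ± 6.01 in N1N2 plus Lrp6 (SD, n = 5). The array lowest in this share, N1N2 plus Lrp6 replicate 1 at 57.2%, also stood apart for several of the genes below, whose changes are therefore given with and without it. Slides bear on the groups too: of 6 slides only 1 held more than 1 group, namely 2 control and 2 N1N2 arrays, while 4 of the 5 N1N2 plus Lrp6 arrays shared a slide of their own, so slide and Lrp6 antibody cannot be told apart.

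Under Notch1 and Notch2 blockade, Notch4 RNA rose and 1 of the 2 Notch2 probes fell, and no other probe of the set passed the test. A change below is a log2 difference between group means, taken from 1 limma fit of the 15 arrays, two-sided, with p-values adjusted by Benjamini-Hochberg over all 28491 probes tested and a threshold of 0.05; a probe past it is called. Of the 10 tested probes 1 rose and 1 fell, against 11.4% of all probes called in this comparison (6.21% higher, 5.23% lower). The median change of the 10 was 0.01, against -0.01 over all probes, and the median size of change was 0.16 against 0.13.

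**Figure D1:**
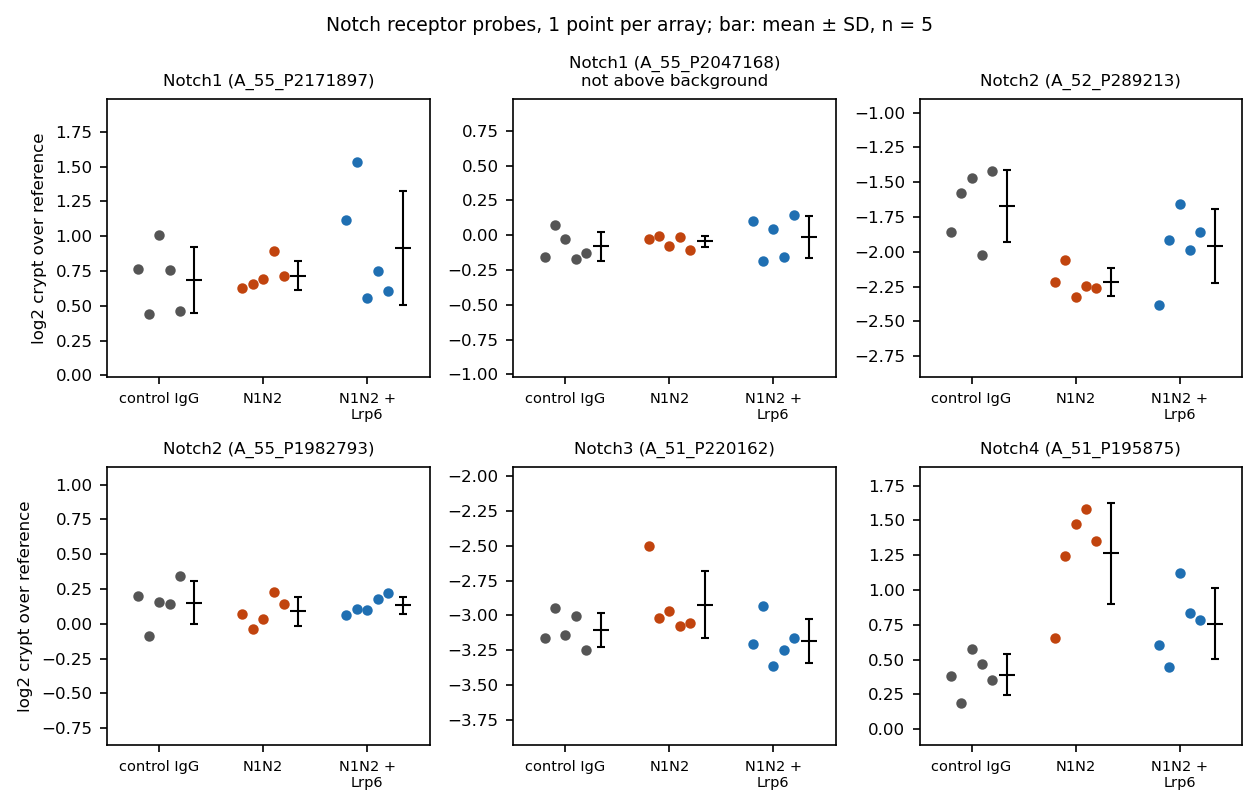
Level of each Notch receptor probe on every array (log2 crypt over reference, vertical axis) by treatment group, with 1 point per array and a bar for the mean ± SD (n = 5). All 5 N1N2 arrays lie above the controls for Notch4 and below them for Notch2 probe A_52_P289213, while the groups overlap for the other 4 probes; the axes start at different values.

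Notch4 gave the largest change among the receptors. Its log2 ratios were 0.38, 0.19, 0.58, 0.47 and 0.35 in control replicates 1 to 5, and 0.66, 1.25, 1.48, 1.58 and 1.35 in N1N2 replicates 1 to 5. In N1N2 plus Lrp6 replicates 1 to 5 they were 0.61, 0.45, 1.12, 0.83 and 0.79. Every N1N2 array lay above every control, replicate 1 by the least, and the N1N2 plus Lrp6 values overlapped both other groups. The means were 0.39 ± 0.14, 1.26 ± 0.36 and 0.76 ± 0.25 (SD, n = 5 each). Notch4 rose by 0.87 (SE 0.16, 95% interval 0.54 to 1.20, 1.83-fold) in N1N2 over control, with an adjusted p of 0.0026 in limma. Leaving out any 1 array gave changes from 0.79 to 1.02, all called. With slide as a block, which rests on the 4 arrays of the shared slide, the change was 0.54 and was no longer called (adjusted p = 0.38 in limma).

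The Lrp6 antibody went with a lower Notch4 level. Compared with N1N2 alone it fell by 0.50 (SE 0.16, 95% interval -0.84 to -0.17, 1.42-fold), with an adjusted p of 0.038 in limma, although the 5 values of each group overlap. This was the only member called in that comparison, against 16.5% of all probes (9.67% higher, 6.87% lower). The call was lost when any 1 of N1N2 replicates 2, 3, 4 or 5, or of N1N2 plus Lrp6 replicates 1, 2, 4 or 5, was left out, with changes from -0.66 to -0.42 and adjusted p from 0.0037 to 0.11 over the 15 omissions. Without the 4 arrays on the Lrp6 group's own slide the change was -0.48 (adjusted p = 0.41 in limma), with 1 array left in that group. With slide as a random block it was -0.49 and called (adjusted p = 0.0085 in limma). That fit estimated a within-slide correlation below 0, at -0.18, and called 8331 of all probes against 4712 without the block. No slide held the Lrp6 group with another group, so the block cannot separate slide from antibody. In order of mean level Notch4 ran N1N2, N1N2 plus Lrp6, control. The combined group was 0.37 above control (SE 0.16, 95% interval 0.03 to 0.70). That difference had an unadjusted p of 0.033 and was not called after adjustment (adjusted p = 0.35 in limma).

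Endothelial markers were read beside the rise of Notch4. Of 16 endothelial markers 11 passed the filter, and Tek, Tie1, Emcn, Prox1 and Flt4 did not, Flt4 being well above background on 0 arrays. The mean log2 ratio of the 11 lay between -0.34 and -0.23 in controls, between -0.27 and -0.19 in N1N2 and between -0.47 and -0.19 in N1N2 plus Lrp6. In N1N2 against control 0 of the 11 were called, against 11.4% of all probes, and 7 lay above 0 (median change 0.01). Esam changed by 0.31 (adjusted p = 0.30), Vwf by 0.30 (adjusted p = 0.058) and Pecam1, an adhesion protein of endothelial junctions, by 0.23 (adjusted p = 0.058). The VEGF receptor gene Kdr changed by 0.16 (adjusted p = 0.47). Cdh5, the endothelial cadherin, changed by -0.08 (adjusted p = 0.63) and Egfl7 by -0.15 (adjusted p = 0.58 in limma). In N1N2 plus Lrp6 against N1N2, Pecam1 fell by 0.23 (adjusted p = 0.048 in limma) and the other 10 were not called, against 16.5% of all probes called. The part of endothelial RNA in the Notch4 result was not tested further. In bulk crypt RNA, fewer cells of a type and less RNA per cell cannot be told apart.

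**Figure D2:**
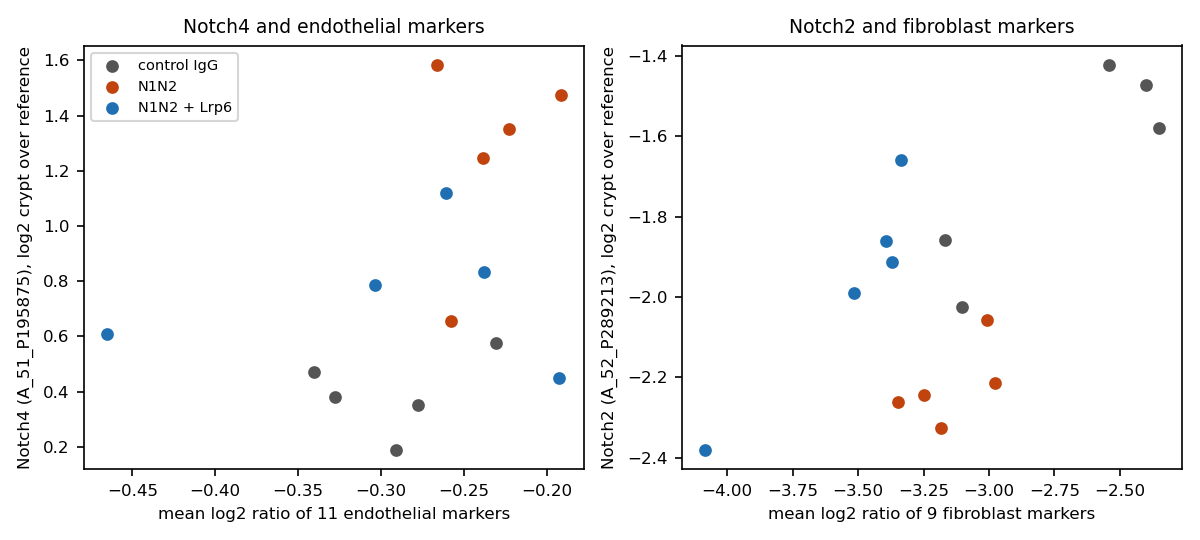
Left, Notch4 level against the mean of 11 endothelial markers, and right, level of Notch2 probe A_52_P289213 against the mean of 9 fibroblast markers (all log2 crypt over reference), with 1 point per array coloured by group. N1N2 arrays stand above controls in Notch4. Endothelial markers averaged -0.29 in controls and -0.24 in N1N2. Among controls only replicate 3 (-0.23) lies within the N1N2 range of -0.27 to -0.19, and the others lie below it. The control arrays highest in Notch2 are also those highest in fibroblast markers. Neither relation was tested.

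Notch2, 1 of the 2 receptors that the antibodies block, gave different answers on its 2 probes. On probe A_52_P289213 the log2 ratios were -1.86, -1.58, -1.47, -2.03 and -1.42 in controls, and -2.22, -2.06, -2.33, -2.24 and -2.26 in N1N2. With Lrp6 antibody they were -2.38, -1.91, -1.66, -1.99 and -1.86. All 5 N1N2 values lay below all controls, though N1N2 replicate 2 was close to control replicate 4, and the N1N2 plus Lrp6 values overlapped both. The means were -1.67 ± 0.26, -2.22 ± 0.10 and -1.96 ± 0.26 (SD, n = 5 each). The fall in N1N2 was 0.55 (SE 0.13, 95% interval of the change -0.83 to -0.27, 1.46-fold, adjusted p = 0.016 in limma). Adding the Lrp6 antibody changed this probe by 0.26 (SE 0.13, adjusted p = 0.21), and against control the combined group differed by -0.29 (adjusted p = 0.38). Without N1N2 plus Lrp6 replicate 1, the lowest of the 15 arrays for this probe, these changes were 0.36 (adjusted p = 0.055) and -0.18 (adjusted p = 0.47) in limma.

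The fall was not called on Notch2 probe A_55_P1982793. Its control values were 0.20, -0.09, 0.15, 0.14 and 0.34, its N1N2 values 0.07, -0.04, 0.04, 0.23 and 0.14, and its N1N2 plus Lrp6 values 0.07, 0.10, 0.10, 0.18 and 0.22. The 3 groups overlap, and the change in N1N2 was -0.06 (SE 0.08, 95% interval -0.23 to 0.10, adjusted p = 0.67 in limma). This probe is the dimmer of the pair, with a median net red intensity of 74 against 354 for A_52_P289213. The fall on A_52_P289213 exceeded that on A_55_P1982793 by 0.49, with a two-sided exact permutation p of 0.0238 over the 10 arrays, or 0.0714 after adjustment over the 3 comparisons of groups. This test was chosen after the values were seen, and 0.00794 is the smallest p it can give. Across the 15 arrays the 2 probes correlated at r = 0.23, and at 0.08 after group means were subtracted, both given as descriptions.

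The Notch2 fall has limits. With arrays scaled to each other it was 0.22 and not called (adjusted p = 0.62), and with slide as a block 0.41 and not called (adjusted p = 0.49); leaving out any 1 array kept it between 0.49 and 0.64. Fibroblast markers, 9 of 10 tested (not Dpt), had a mean log2 ratio of -3.17 to -2.35 in controls, -3.35 to -2.98 in N1N2 and -4.09 to -3.34 in N1N2 plus Lrp6. Of the 9, 2 were called in N1N2 against control, against 11.4% of all probes. Dcn and Lum, which encode collagen-binding proteoglycans, fell by 1.38 (adjusted p = 0.020) and 1.27 (adjusted p = 0.026) in limma. The part of fibroblast RNA in the Notch2 result was not tested. In N1N2 plus Lrp6 against N1N2, 2 of the 9 fell, against 6.87% of all probes. Col1a1 fell by 0.79 (adjusted p = 0.021) and Col1a2 by 0.88 (adjusted p = 0.0079 in limma), both chains of fibrillar collagen. The Notch2 probe was 0.26 higher there and not called.

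Notch1, the other blocked receptor, showed no detectable change in RNA. Its log2 ratios were 0.77, 0.44, 1.01, 0.76 and 0.46 in controls, 0.63, 0.65, 0.69, 0.90 and 0.71 in N1N2, and 1.12, 1.53, 0.56, 0.75 and 0.61 in N1N2 plus Lrp6. The groups overlap, and N1N2 plus Lrp6 replicates 1 and 2 were the highest of the 15. The change in N1N2 over control was 0.03 (SE 0.16, adjusted p = 0.94 in limma), and its 95% interval of -0.32 to 0.38 leaves room for a change of that size in either direction. With the Lrp6 antibody added the change was 0.20 (SE 0.16, adjusted p = 0.48), or 0.04 without N1N2 plus Lrp6 replicate 2 (adjusted p = 0.87). These are RNA levels, and the arrays do not measure how much receptor protein was blocked.

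Notch3 was low against the reference in every group and was not called in any comparison. Its values were -3.16, -2.95, -3.14, -3.01 and -3.25 in controls, -2.50, -3.02, -2.97, -3.08 and -3.05 in N1N2, and -3.20, -2.93, -3.36, -3.25 and -3.16 in N1N2 plus Lrp6. A single array, N1N2 replicate 1, was above all others. The change in N1N2 was 0.18 (SE 0.11, adjusted p = 0.33 in limma), or 0.07 without that array (adjusted p = 0.68). Adding the Lrp6 antibody changed Notch3 by -0.26 (SE 0.11, adjusted p = 0.13), which the scanner software's own ratio put at -0.66 and called (adjusted p = 0.0087). Pericyte and smooth muscle markers, 11 of 12 tested (not Kcnj8), averaged -1.19 to -0.63 in controls, -1.15 to -0.98 in N1N2 and -1.97 to -1.23 in N1N2 plus Lrp6. None was called in N1N2 against control, against 11.4% of all probes. When the Lrp6 antibody was added 3 of the 11 fell, against 6.87% of all probes. These were the smooth muscle contractile genes Acta2, by 0.81 (adjusted p = 0.011), Actg2, by 0.90 (adjusted p = 0.040), and Myh11, by 0.44 (adjusted p = 0.036 in limma). The part of pericyte and smooth muscle RNA in the Notch3 values was not tested.

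**Figure D3:**
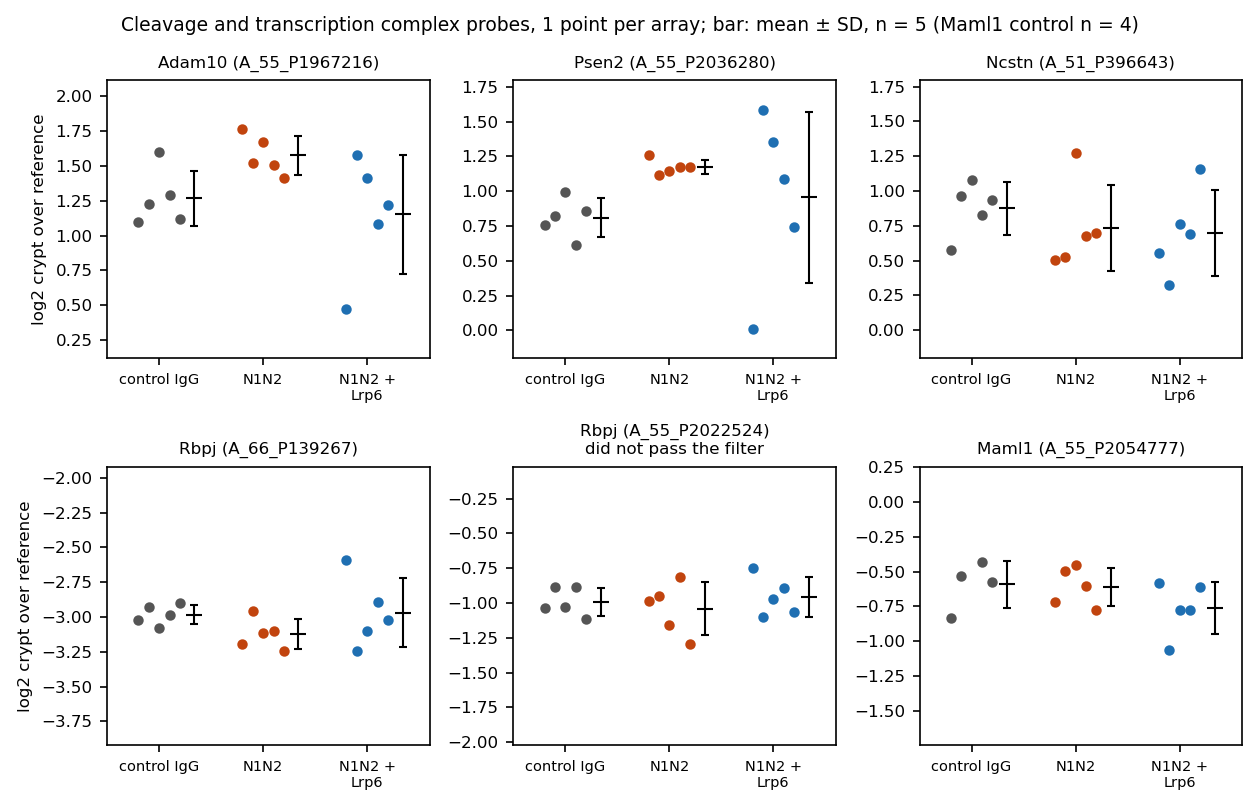
Level of each probe of Adam10, the γ-secretase subunits, Rbpj and Maml1 on every array (log2 crypt over reference) by treatment group, with 1 point per array and a bar for the mean ± SD (n = 5, and 4 for Maml1 in controls). Psen2 was higher on all 5 N1N2 arrays than in controls, and N1N2 plus Lrp6 replicate 1 was the lowest of all arrays for Adam10 and Psen2 and the highest for Rbpj A_66_P139267; the axes start at different values.

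Among the genes of receptor cleavage none was called in any of the 3 comparisons. Adam10, the protease that makes the first cut, read 1.10, 1.23, 1.60, 1.29 and 1.12 in controls, 1.77, 1.52, 1.67, 1.51 and 1.41 in N1N2, and 0.47, 1.58, 1.41, 1.08 and 1.22 in N1N2 plus Lrp6. The N1N2 values sat in the upper part of the range and overlapped control replicate 3, with means of 1.27 ± 0.20 and 1.58 ± 0.14 (SD, n = 5). The change was 0.31 (SE 0.16, 95% interval -0.04 to 0.66, adjusted p = 0.25 in limma). Adding the Lrp6 antibody changed Adam10 by -0.42 (SE 0.16, adjusted p = 0.096), and by -0.25 without its replicate 1 (adjusted p = 0.20). Without N1N2 plus Lrp6 replicate 2 the change was -0.53 and was called (adjusted p = 0.030).

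Psen2, a catalytic presenilin, read 0.76, 0.82, 0.99, 0.61 and 0.86 in controls and 1.26, 1.12, 1.15, 1.17 and 1.17 in N1N2. With the Lrp6 antibody it read 0.01, 1.58, 1.35, 1.09 and 0.74. All 5 N1N2 values lay above all controls, whereas the N1N2 plus Lrp6 values ran from below every control to above every N1N2 array. The group means were 0.81 ± 0.14, 1.17 ± 0.05 and 0.96 ± 0.61 (SD, n = 5). In the fit of all 3 groups, which shares 1 spread among them, the change in N1N2 was 0.37 (SE 0.21, 95% interval -0.08 to 0.81) and was not called (adjusted p = 0.29). In a fit of control and N1N2 arrays alone, the same 0.37 was called (adjusted p = 0.0070 in limma). Counting Psen2, the values of 3 of the 10 probes did not overlap between N1N2 and control, against 12.1% of all probes. No probe of the set was free of overlap in the other comparisons, against 9.99% of all probes for N1N2 plus Lrp6 over N1N2 and 2.62% for N1N2 plus Lrp6 over control. Without N1N2 plus Lrp6 replicate 1, the Psen2 change on adding the Lrp6 antibody went from -0.22 (adjusted p = 0.56) to 0.02 (adjusted p = 0.96).

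Ncstn, the nicastrin gene, ranged from 0.58 to 1.08 in controls (median 0.94), from 0.51 to 1.27 in N1N2 (median 0.67) and from 0.32 to 1.16 in N1N2 plus Lrp6 (median 0.69). The 3 groups cover nearly the same range, and the change in N1N2 was -0.14 (SE 0.16, 95% interval -0.48 to 0.20, adjusted p = 0.63 in limma). With the Lrp6 antibody added it was -0.04 (adjusted p = 0.92). The RefSeq models of Ncstn and of Copa, a coat protein gene, overlap in the genome, and where the probe lies relative to Copa was not examined.

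The nuclear pair did not change detectably either. Rbpj probe A_66_P139267 ranged from -3.08 to -2.90 in controls, from -3.24 to -2.96 in N1N2 and from -3.25 to -2.59 in N1N2 plus Lrp6. Its change in N1N2 was -0.14 (SE 0.10, 95% interval -0.355 to 0.08, adjusted p = 0.42 in limma) and 0.15 on adding the Lrp6 antibody (adjusted p = 0.36), or 0.06 without replicate 1 of that group. The direction in N1N2 turned with arrays scaled to each other, to 0.38 (adjusted p = 0.13). Maml1 ranged from -0.83 to -0.43 in 4 controls, from -0.78 to -0.45 in N1N2 and from -1.06 to -0.58 in N1N2 plus Lrp6. Its changes were -0.02 (SE 0.11, adjusted p = 0.95) and -0.15 (SE 0.10, adjusted p = 0.38).

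**Figure D4:**
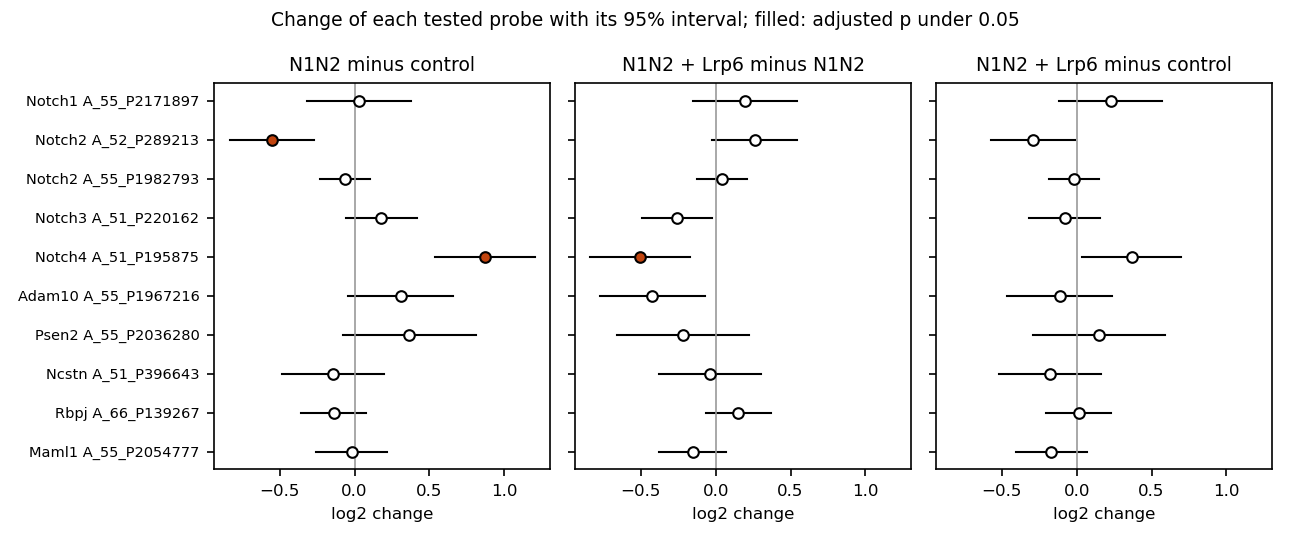
Change of each of the 10 tested probes (log2, horizontal axis) in the 3 comparisons, with points for the fitted change, lines for its 95% interval and filled points where the adjusted p was under 0.05. Notch4 and Notch2 probe A_52_P289213 are filled for N1N2 against control, Notch4 alone for N1N2 plus Lrp6 against N1N2, and no probe for N1N2 plus Lrp6 against control.

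With both treatments together, no member differed from control in the limma fit at an adjusted p under 0.05, and 0.358% of all probes did. This comparison shares its arrays with the other 2, so its values are set beside theirs and add no separate evidence. The largest changes were 0.37 for Notch4 (adjusted p = 0.35), -0.29 for Notch2 probe A_52_P289213 (adjusted p = 0.38) and 0.23 for Notch1 (adjusted p = 0.59), the last being 0.07 without N1N2 plus Lrp6 replicate 2 (adjusted p = 0.89). At an unadjusted p under 0.05 the count was 2 of 10, Notch4 and Notch2 probe A_52_P289213, against 12.8% of all probes. The 10 probes had a median change of -0.05 against 0.01 for all probes, and on adding the Lrp6 antibody to N1N2 a median of -0.09 against 0.00.

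Some members varied together from array to array. After group means were subtracted, Adam10 and Psen2 correlated at r = 0.86 over the 15 arrays, and both ran against Rbpj A_66_P139267, at -0.84 for Adam10 and -0.83 for Psen2. Notch3 and Notch4 ran at -0.85 within groups and -0.05 over all arrays, and N1N2 replicate 1 was both the highest array for Notch3 and the lowest of its group for Notch4. Arrays share their signal quality, and N1N2 plus Lrp6 replicate 1 lies at an extreme of Adam10, Psen2 and Rbpj, so these are descriptions and carry no p.

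Genes with the pattern most like a receptor's were ranked by Pearson's r over the 15 arrays among named probes kept. For Notch4 these were Rassf6 (r = 0.96), Prr22 (0.95) and Ern2 (0.94), and after subtracting group means Esrp2 (0.94), Rassf6 (0.92) and Sytl2 (0.91). Ern2 encodes an endoplasmic reticulum stress sensor of mucin-producing epithelium and Esrp2 an epithelial splicing regulator. For Notch2 probe A_52_P289213 they were Clu (0.90), C1ra (0.88) and H2az2 (0.87), and within groups C1s2 (0.92), Col1a1 (0.91) and Col3a1 (0.89), of which the last pair encode collagen chains of fibroblasts. For Notch1 they were Sdad1 (0.90), Mrgprg (0.87) and Usp8 (0.85), and within groups Sdad1 (0.92), Purb (0.89) and Tyw1 (0.89). For Notch3 they were Srxn1 (0.87), Slc13a5 (0.86) and Thbs2 (0.86), and within groups Fggy, Mad2l1bp and Batf3 (0.93, 0.93 and 0.92).

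Other genes of receptor processing were called in N1N2 about as often as all probes (11.4%, with 6.21% higher). Of 11 such genes 10 were tested (not Aph1c, which no probe matched), and 1 rose in N1N2: Lfng, a Fringe glycosyltransferase that modifies Notch, by 0.96 (SE 0.12, adjusted p = 0.00015). It was also the 1 that fell when the Lrp6 antibody was added, by 0.44 (adjusted p = 0.021), against 6.87% of all probes. The γ-secretase subunit gene Aph1a changed by 0.32 in N1N2 (adjusted p = 0.10) and by -0.32 with the added antibody (adjusted p = 0.094), and neither Aph1b nor Psenen was called. The median change of the 10 was 0.17 in N1N2 and -0.15 on adding the Lrp6 antibody, against -0.01 and 0.00 over all probes.

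**Figure D5:**
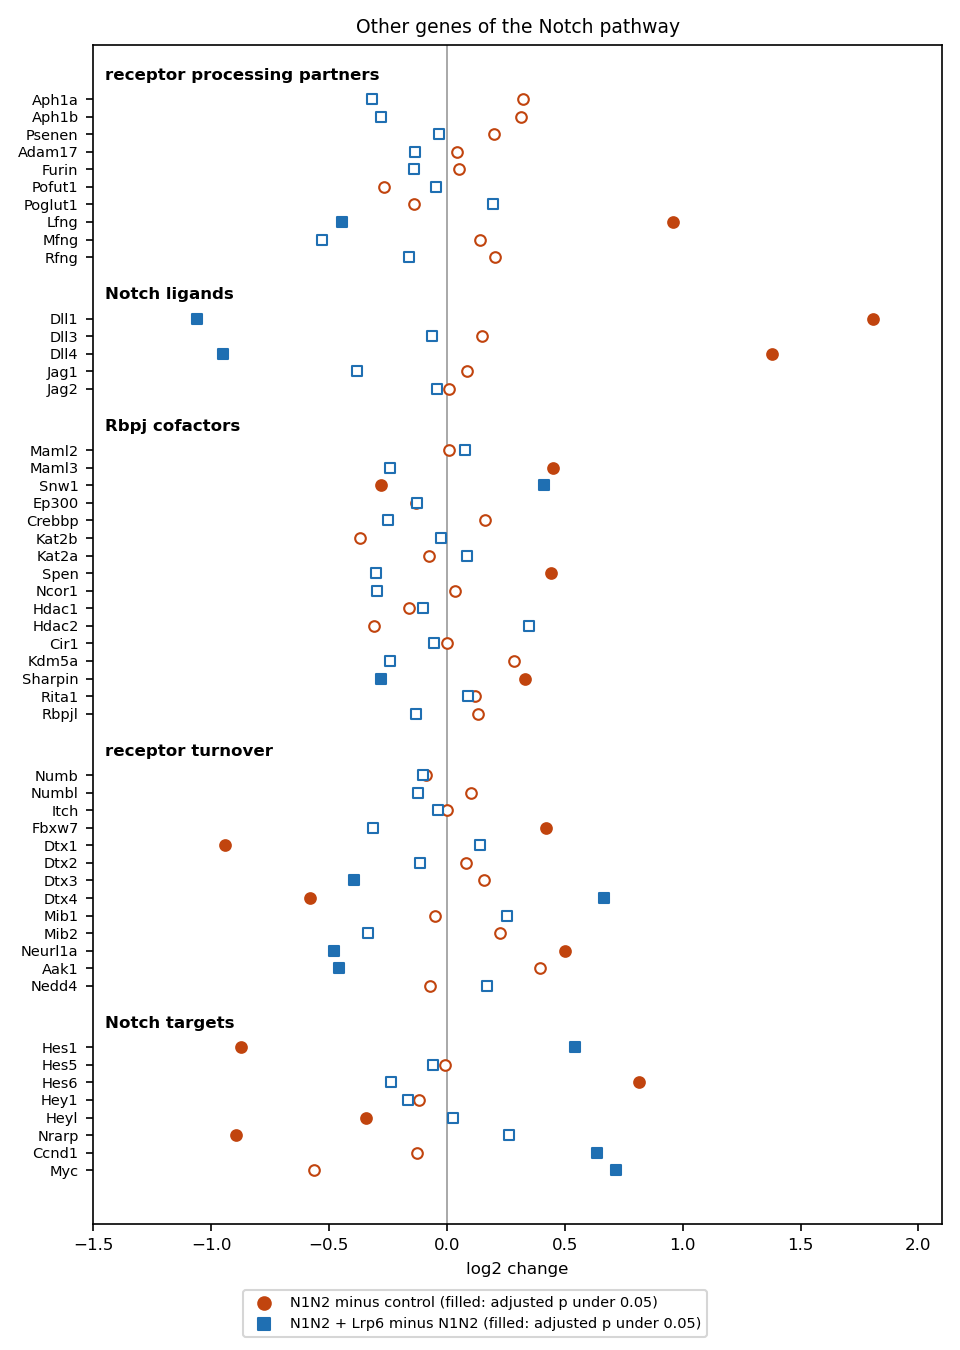
Log2 change of 52 other genes of the Notch pathway in 5 lists, as circles for N1N2 minus control and squares for N1N2 plus Lrp6 minus N1N2, filled where the adjusted p was under 0.05. Dll1, Dll4 and Lfng are filled above 0 for N1N2 and below 0 for the added Lrp6 antibody, and Hes1 is filled on the opposite sides.

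Ligand genes and target genes held further calls. The shares of all probes called were 6.21% higher and 5.23% lower in N1N2, and 9.67% and 6.87% on adding the Lrp6 antibody. Of 5 ligand genes 2 rose in N1N2, Dll1 by 1.81 (adjusted p = 3.2e-07) and Dll4 by 1.38 (adjusted p = 0.00014), and both fell on adding the Lrp6 antibody, by 1.06 and 0.95. Of 11 genes listed as Notch targets 8 were tested (not Hey2, which was too dim, nor Olfm4 and Gpr126, which no probe matched). Whether Notch turns on each of them, Hes6, Ccnd1 and Myc included, was not examined. In N1N2, Nrarp, a feedback inhibitor of the pathway, fell by 0.90, the repressor gene Hes1 by 0.87 and Heyl by 0.34, while Hes6 rose by 0.82. With the Lrp6 antibody added Hes1 rose by 0.54 (adjusted p = 0.011), Ccnd1, the cyclin D1 gene, by 0.64 and Myc by 0.72. In these 2 comparisons the median change was -0.23 and 0.15 for the targets, and 0.15 and -0.38 for the ligands.

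Of 17 genes listed as partners of Rbpj 16 were tested (not Fhl1), and 3 rose in N1N2, against 6.21% of all probes. These were Maml3, a relative of Maml1, by 0.45 (adjusted p = 0.0062), the corepressor gene Spen, by 0.44 (adjusted p = 0.049), and Sharpin, by 0.33 (adjusted p = 0.026 in limma). Sharpin is best known as a subunit of a ubiquitin ligase, and whether it works with Rbpj was not examined. Snw1, a coregulator that binds Rbpj, was the 1 that fell, by 0.28 (adjusted p = 0.046), against 5.23% of all probes. On adding the Lrp6 antibody Snw1 rose by 0.41 and Sharpin fell by 0.28, against 9.67% of all probes called higher and 6.87% lower. The median change of the 16 was 0.02 in N1N2 and -0.11 with the Lrp6 antibody.

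All 13 genes listed under receptor turnover were tested, and whether each acts on the receptor or on its ligands was not examined. Blockade raised 2 and lowered 2 of them in N1N2, against 6.21% and 5.23% of all probes. In N1N2, Neurl1a, a ubiquitin ligase gene, rose by 0.50 (adjusted p = 0.014) and Fbxw7, which encodes the receptor subunit of a ligase that marks the Notch intracellular domain for destruction, by 0.42 (adjusted p = 0.023). The Deltex genes Dtx1 and Dtx4, whose products bind Notch, fell by 0.94 (adjusted p = 0.0075) and 0.58 (adjusted p = 0.0073). On adding the Lrp6 antibody Dtx4 rose by 0.67 and Neurl1a, Aak1 and Dtx3 fell by 0.48, 0.46 and 0.39. The shares of all probes called there were 9.67% higher and 6.87% lower. The median change of the 13 was 0.08 in N1N2 and -0.11 with the added antibody.

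The label of the tissue was checked on crypt epithelium genes. The mean log2 ratio of 11 of them, keratins, Cdx factors, Lgr5 and others, was 5.16 to 5.29 in controls, 5.07 to 5.64 in N1N2 and 4.76 to 5.39 in N1N2 plus Lrp6, with 11 of 11 well above background on every array. Of these Krt18 rose in N1N2 by 0.83 (adjusted p = 9.5e-05) and fell by 0.58 with the Lrp6 antibody (adjusted p = 0.0019). The 12 tested immune markers averaged 1.57 to 2.00 in controls, 1.26 to 1.79 in N1N2 and 1.30 to 1.58 in N1N2 plus Lrp6. Cd3e, Gzma and Itgax, 3 of the 12, fell in N1N2, against 5.23% of all probes called lower.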

How the data were processed

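Crypt RNA of 15 mouse samples was hybridised to 2-colour Agilent arrays, crypt in Cy5 (red) and reference in Cy3 (green). The authors deposited 1 scanner file per array, which holds, for each of 44397 spots, median intensity and local background intensity of both channels, quality flags and a log10 ratio of red over green, read with Feature Extraction 11.0.1.1 on probes designed on mm9, per the file headers. A series table that the authors deposited holds log2 values, for which the submitters' processing notes name R 3.0.0 and limma 3.6.7. Each column was checked against the same array's ratio as recomputed (lowest r 0.99998, slopes 0.999 to 1.003), so its scale is log2 of crypt over reference, with column medians of 0.0144 to 0.0286.

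The software was limma 3.58.1, under R 4.3.3, with the data.table package (1.17.8). Spots flagged for non-uniformity or as population outliers, 401 to 761 per array, were left out before normexp background correction (offset 50). Ratios were normalized within arrays by loess (span 0.3), with control spots at weight 0. Spots of 1 probe were averaged and probes of a gene kept apart. Of 39429 probes 28491 passed the filter, and 26586 had a name through accessions in the RefSeq table of GRCm38.p6. The files hold no mean signals, so medians were used. A gene in a list was represented by its probe of highest mean red signal. No spot was saturated, and the number of arrays limits the precision.

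The groups were compared in 1 fit (lmFit and eBayes), as the report states. A limma p-value weighs a difference of group means against the spread between arrays within groups, pooled over the 3 groups. The script was tested on simulated data. Every probe of the 9 genes is described. From each other pathway list, at most 6 called genes were named, by size of change. 2 genes of the planned lists are not reported here. Members and lists were chosen with earlier results of these data known. Alternatives changed background, normalization, filter, flags, moderation, slide and replicate blocks, samples fitted and array weights, and left out each array.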

Additional observations from a re-analysis of the deposited data

Results flagged for a closer look

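Of 36 sets of values, 1 for each of 12 probes in each group, 2 held an array far from the rest of its group by Dixon's ratio of gap to range at the 95% level, and chance alone marks about 1 in 20 such sets. Ncstn on N1N2 replicate 3 read 1.27, with the nearest array of its group at 0.70 (gap 0.75 of the range); without this array the change of Ncstn in N1N2 over control went from -0.14 to -0.28 (adjusted p = 0.24 in limma). Notch3 on N1N2 replicate 1 read -2.50, with the nearest at -2.97 (gap 0.81 of the range), and without it the change went from 0.18 to 0.07 (adjusted p = 0.68).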

How the results depend on the processing

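Of the results under settings other than leaving out 1 array, 430 kept their direction and side of the threshold, 8 passed the threshold only there, 7 no longer passed and 23 changed sign; over the omissions of 1 array the counts were 425, 1, 8 and 16. The causes were not tested. The number of member probes called in N1N2 over control (2) was 1 with arrays scaled to each other, 0 with slide as a fixed block, 3 with only the groups compared and 4 with array weights, and 2 in each of the 15 omissions. For N1N2 plus Lrp6 over N1N2 (1) it was 2 with the scanner's ratio, 3 with slide as a random block, and 0 with median centring, scaling, only the groups compared, or without the 4 arrays sharing a slide (chosen after seeing the data; the lone array left is assumed to vary like the other groups). It was 0 to 1 over the omissions. For N1N2 plus Lrp6 over control (0) it was 2 with the random slide block, whose estimated within-slide correlation was below 0, at -0.18.

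Array weights added Adam10 (0.32) and Psen2 (0.36) in N1N2 over control. Fits of the random slide block added Adam10 (-0.42) and Notch3 (-0.27) on adding the Lrp6 antibody, and Notch2 A_52_P289213 (-0.32) and Notch4 (0.41) in the combined group over control. Median centring put the Notch4 change on adding the Lrp6 antibody at -0.49 (adjusted p = 0.10), and scaling at -0.40 (adjusted p = 0.12), both in limma.

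Signs turned mostly near 0. In N1N2 plus Lrp6 over control, Rbpj (0.01) became -0.0411 with the scanner's ratio, -0.0028 without background correction, -0.0199 with offset 10, -0.0040 with median centring, -0.029 with array weights and -0.038 without the shared slide. Notch2 A_55_P1982793 (-0.02) became 0.0184, 0.0262 and 0.0688 without background correction, with array weights and without the shared slide. Without that slide Psen2 became -0.0675, Notch1 -0.0803 and Ncstn 0.284, and scaling put Notch3 at 0.154. In N1N2 over control, Notch1 (0.03) became -0.0304 with median centring and -0.0671 with scaling, and scaling put Rbpj at 0.383 and Maml1 at 0.113. On adding the Lrp6 antibody, Maml1 became 0.0272 with median centring, and scaling put Rbpj at -0.113 and Ncstn at 0.0357. Ncstn was 0.0199 with array weights and 0.426 without the shared slide, and Notch1 was -0.109 there. Leaving out 1 array gave -0.0969 to 0.0361 for Maml1 and -0.0328 to 0.109 for Notch1 in N1N2 over control, -0.153 to 0.0968 for Ncstn and -0.375 to 0.018 for Psen2 on adding the Lrp6 antibody, and -0.0821 to 0.0812 for Rbpj, -0.0776 to 0.0294 for Notch2 A_55_P1982793, -0.221 to 0.0569 for Adam10 and -0.0092 to 0.384 for Psen2 in the combined group over control.

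Over all probes, the 3258 called in N1N2 over control became 117 with the fixed slide block, 1456 with median centring (45.6% of them higher, against 54.3%), 1861 with scaling and 7551 with array weights, and 1747, 1756 and 1815 without control replicates 2 and 5 and N1N2 replicate 4. On adding the Lrp6 antibody, 4712 became 2519 with scaling, 8331 with the random slide block and 269 without the shared slide, and 77.2% were higher with median centring against 58.5%. The combined group's 102 ranged from 2 without the shared slide to 3275 with the random slide block. Whether same-numbered replicates were pairs was not settled. Their deviations correlated at -0.01 to 0.62 in N1N2 and control. With the replicate block the member counts were 2, 1 and 0, as without it, and 2821, 4369 and 32 over all probes. Signals near background limit Notch3 and Notch2 A_55_P1982793.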
